A study of Vitis vinifera with 45 samples.

Results

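Grapevine carries most of its stilbene synthase genes in 2 tandem arrays, and their transcripts were followed here in the berry skin of the red seedless table grape Crimson Seedless (CS). The members were taken by locus number alone, from VIT_16s0100g00750 to VIT_16s0100g01200 on chromosome 16 and from VIT_10s0042g00840 to VIT_10s0042g00930 on chromosome 10. This gave 39 members on chromosome 16 and 10 on chromosome 10, that is 49 of the 29958 transcripts listed. No expression value entered the choice. The scion was CS (V. vinifera) in every group, and skins were sampled in 3 biological replicates at the stages DAF45, DAF75 and DAF105, named for the number of days after flowering (DAF), so that 15 groups and 45 libraries were compared. The grafted types were self-grafted CS/CS and the 3 heterografts CS/101-14, CS/110R and CS/SO4, in which the scion stood on the commercial rootstock 101-14, 110R or SO4, all bred from hybrids between grape species. The graft-free CS vines grew on their own roots. The sample titles give CS/CS and CS nearly the same name, and only a note of the study states which one was self-grafted. Whether the replicates of a group came from separate vines is not stated in the sources used here, so the p-values below measure the spread between these samples, which may in part be technical.

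Stilbene synthase joins p-coumaroyl-CoA with malonyl-CoA to make resveratrol, the parent of the grapevine stilbenes. Chalcone synthase uses the same substrates to make naringenin chalcone, the entry point of flavonoids and anthocyanins, and the enzymes are close relatives. Phenylalanine ammonia-lyase (PAL) and 4-coumarate:CoA ligase (4CL) act upstream of both. In grapevine the stilbene synthase genes have multiplied into a large family of near-identical tandem copies, known to be induced by pathogens, ultraviolet light and wounding and to be transcribed in ripening berry skin. The files hold identifiers without names, and 0 of the 29958 identifiers were found in the RefSeq gene table, so neither the family name of the members nor the labelled tissue could be checked against markers, and the locus numbers stand for the members throughout. Their positions are known here only as far as the identifiers give the chromosome.

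One member, VIT_16s0100g00950, lies within the chromosome 16 array but is named CHS (chalcone synthase) in the primer list of the study. Its primers are shown because they define what a quantitative PCR assay under that name would read among near-identical copies. They are printed with the letters in the order of that list, whose header gives opposite directions for the pair, so the end at which the forward primer starts is uncertain.
VIT_16s0100g00950 forward: tgtcaagtgcatgtgtgttgt
VIT_16s0100g00950 reverse: aagcctggtccaaaaccgaa

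The libraries held between 16387269 and 20765329 counts (median 18442527), and between 1 and 39 members reached 10 counts in a single library (median 18). Of the 1587 member counts above 0, 74.8% were not whole numbers, against 12.4% of the 952514 such counts over all transcripts, so a member value can hold reads that were shared out between copies and the summed count of all members was used beside the single ones. Members at 0 counts in all 45 libraries were VIT_16s0100g00870, VIT_16s0100g00970 and VIT_16s0100g01060. VIT_10s0042g00900 and VIT_10s0042g00910 held at most 2 counts and VIT_16s0100g00760 at most 3.01. In all, 37 members reached 10 counts in 3 or more of the 45 libraries.

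The transcripts of the arrays were most abundant in self-grafted CS/CS skins. At DAF105, the members together reached 1212, 485.6 and 878.1 CPM (counts scaled to the library total) in CS/CS. The 9 heterografted libraries of that stage lay between 15.3 and 65.8 CPM (median 40.7), and the 3 CS libraries held 46.3, 34.5 and 27.9 CPM. Every CS/CS library at DAF105 was therefore above all 12 others of the stage. In these whole skins, fewer cells of a type cannot be told apart from less RNA per cell. The plot of the summed CPM by library shows 1 more group apart from the rest of its stage, CS/110R at DAF45, whose 3 libraries lay below the other 12.

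**Figure D1:**
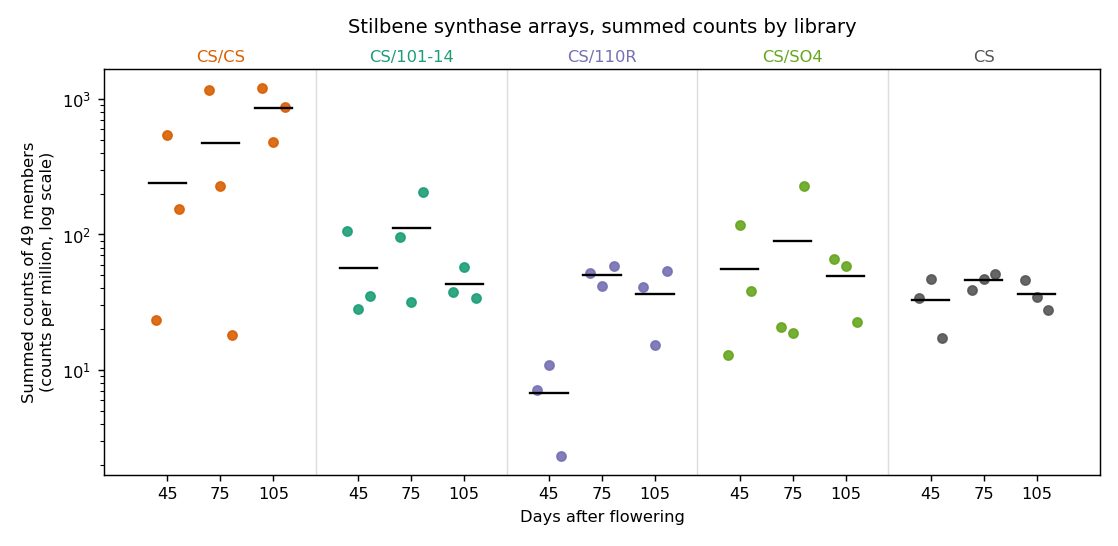
Summed CPM of the 49 members (log axis) in each of the 45 libraries, by graft type and stage, where each point is a library. The 3 CS/CS libraries at DAF105 lie between 485.6 and 1212 CPM, and the 3 CS/110R libraries at DAF45 lie at the bottom, between 2.30 and 10.9 CPM.

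At DAF75, the summed level in CS/CS was 1165, 229.8 and 18.2 CPM, so its libraries ran from above to below the CS libraries at 39.1, 47.3 and 51.3 CPM. At DAF45, it was 23.4, 540.3 and 154.1 CPM in CS/CS, against 34.0, 47.3 and 17.3 CPM in CS. Both early stages of CS/CS thus overlapped with CS. The 9 heterografted libraries had a median of 28.1 CPM at DAF45 (range 2.30 to 116.9) and of 51.6 CPM at DAF75 (range 18.9 to 226.8). The lowest group of all was CS/110R at DAF45, with 7.09, 10.9 and 2.30 CPM.

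Ordered by mean, the summed level was 859 ± 364 CPM in CS/CS at DAF105, 471 ± 610 CPM at DAF75 and 239 ± 269 CPM at DAF45 (SD, n = 3 each). CS/101-14 and CS/SO4 at DAF75 followed with 111.7 ± 88.6 and 88.8 ± 119.5 CPM. The remaining groups lay between 56.4 ± 43.0 CPM (CS/101-14 at DAF45, SD, n = 3) and a mean of 32.9 CPM (CS at DAF45, whose libraries are given above), apart from CS/110R at DAF45 with 6.77 ± 4.31 CPM (SD, n = 3). Neighbours in this order overlapped in their libraries at every step except the last, where the 3 CS/110R libraries at DAF45 lay below those of CS at DAF45.

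The spread between replicates was itself large in these genes. The highest library exceeded the lowest 60.7-fold in CS/CS at DAF75, 22.2-fold in CS/CS at DAF45, 11.4-fold in CS/SO4 at DAF75 and 8.46-fold in CS/SO4 at DAF45 (ratio of CPM + 1). In CS at DAF75 the ratio was 1.303. The median transcript varied between 1.18-fold and 1.36-fold within a group. Only 0.00558% of the 17925 transcripts compared had a larger ratio than the summed members in CS/CS at DAF75, and 27.4% of 17538 in CS at DAF75.

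Levels of single copies were compared in TPM, which is scaled for transcript length and library. The most abundant member was VIT_16s0100g00990, with a mean of 21.4 TPM over the 45 libraries and 22.6% of all member counts. VIT_16s0100g01200, VIT_16s0100g01010, VIT_16s0100g01000, VIT_16s0100g00950 and VIT_16s0100g00830 followed on chromosome 16 with means of 9.38, 9.05, 8.55, 8.27 and 4.99 TPM. On chromosome 10, VIT_10s0042g00860 had 15.9 TPM and VIT_10s0042g00880 had 3.77 TPM. Both rest on very short models, which never held more than 68 and 47.1 counts in a library, which is why CPM and not TPM was used for the sum. By counts over the 45 libraries, VIT_10s0042g00870 and VIT_10s0042g00920, named after their values were seen, held 3180 and 2370. VIT_10s0042g00860 and VIT_10s0042g00880 held 352 and 162.

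**Figure D2:**
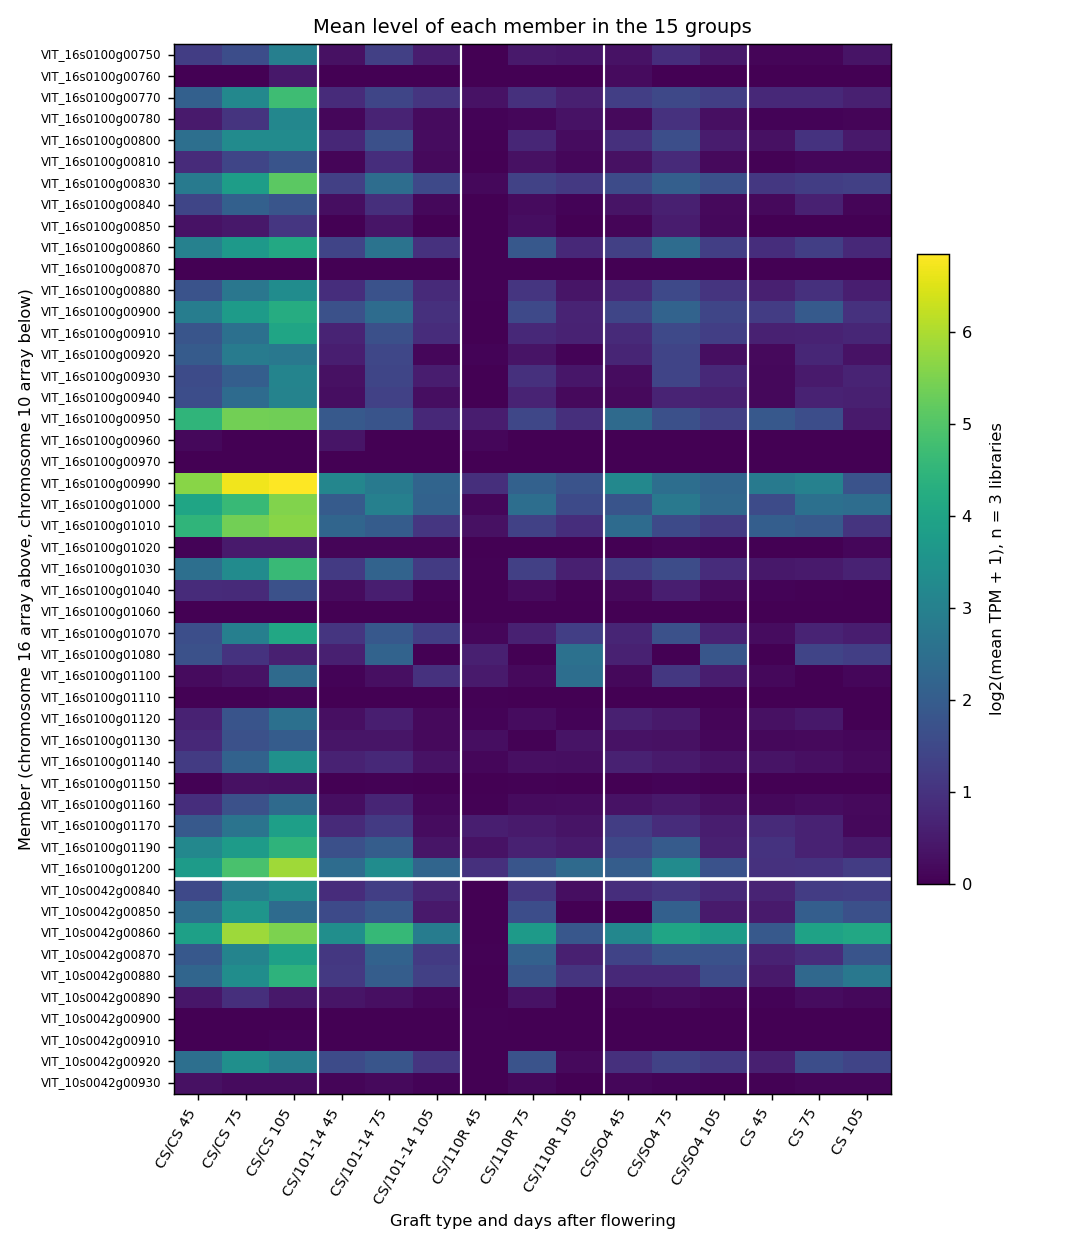
Mean level of each member, as log2(mean TPM + 1), in the 15 groups (columns), with chromosome 16 above the white line and chromosome 10 below it. Of the 37 members with enough counts, 30 have their highest mean in CS/CS at DAF105, 6 in CS/CS at DAF75 and 1 in CS/110R at DAF105. A member can pass the count filter through its highest group alone, and the share over all transcripts was not worked out.

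The members varied together across the libraries. Over the 45 libraries, Pearson's r of log2(CPM + 1) between pairs of the 37 members ranged from 0.0087 to 0.982 with a median of 0.870 (666 pairs). The closest pair was VIT_16s0100g00990 and VIT_16s0100g01010. Each member was also compared with the sum of the others, where r ranged from 0.330 to 0.961 (median 0.894). Shared reads, libraries of the same group and the low counts of many members all enter these coefficients, which are given as a description. In the map of member levels, 30 of the 37 members had their highest mean in CS/CS at DAF105, 6 in CS/CS at DAF75 and VIT_16s0100g01100, named here after its values were seen, in CS/110R at DAF105. A member can pass the filter of 10 counts in 3 libraries through its highest group alone, and VIT_10s0042g00880 passed with just 3 libraries. The share of all transcripts with their highest mean in these groups was not worked out, so the counts are a description only.

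At DAF105, the arrays were up-regulated as a whole in CS/CS. The summed members were 23.2-fold higher in CS/CS than in CS (log2 fold change 4.54, SE 0.39, adjusted p = 0.000534, edgeR's quasi-likelihood test with Benjamini-Hochberg adjustment over all transcripts, n = 3 each). Of the 35 members tested, 33 were up-regulated and 0 down-regulated, taking log2 fold changes beyond 1 or -1 with an adjusted p of at most 0.05, where 12.1% of all transcripts tested were up-regulated and 4.42% down-regulated. A further 14 members had too few counts to be tested. The log2 fold changes of the tested members ran from 1.34 to 9.96 (a fitted value of a member at 0 counts in CS) with a median of 4.99, against a median of -0.002 over all transcripts tested. The median was 4.69 where members at 0 in CS were set to their lower bound. Many members entered this test only through their CS/CS counts, and of the 22 that reached 10 counts in some library of both types 20 were called. Without replicate 1 or without replicate 3 of CS/CS, the number of members called was 20.

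CS/CS was also set against the 9 heterografted libraries, a comparison that shares the CS/CS libraries with the one above but none of CS. The 9 libraries were pooled with no term for rootstock, at this and the other stages. Differences between the heterografts therefore count as spread between replicates in these tests. At DAF105, 34 of 35 members tested were up-regulated in CS/CS and 0 were down-regulated, where 13.7% of all transcripts tested were up-regulated and 4.92% down-regulated. The sum was 20.9-fold higher in CS/CS than in the heterografts (log2 fold change 4.38, SE 0.35, adjusted p = 1.82e-06 by edgeR's quasi-likelihood test). The median log2 fold change of the members was 4.33, against -0.025 over all transcripts. Among the 27 members that reached 10 counts in some library on both sides, 26 were called. The one that was not, VIT_16s0100g01100, had a log2 fold change of 1.06 (adjusted p = 0.315 by the same test).

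**Figure D3:**
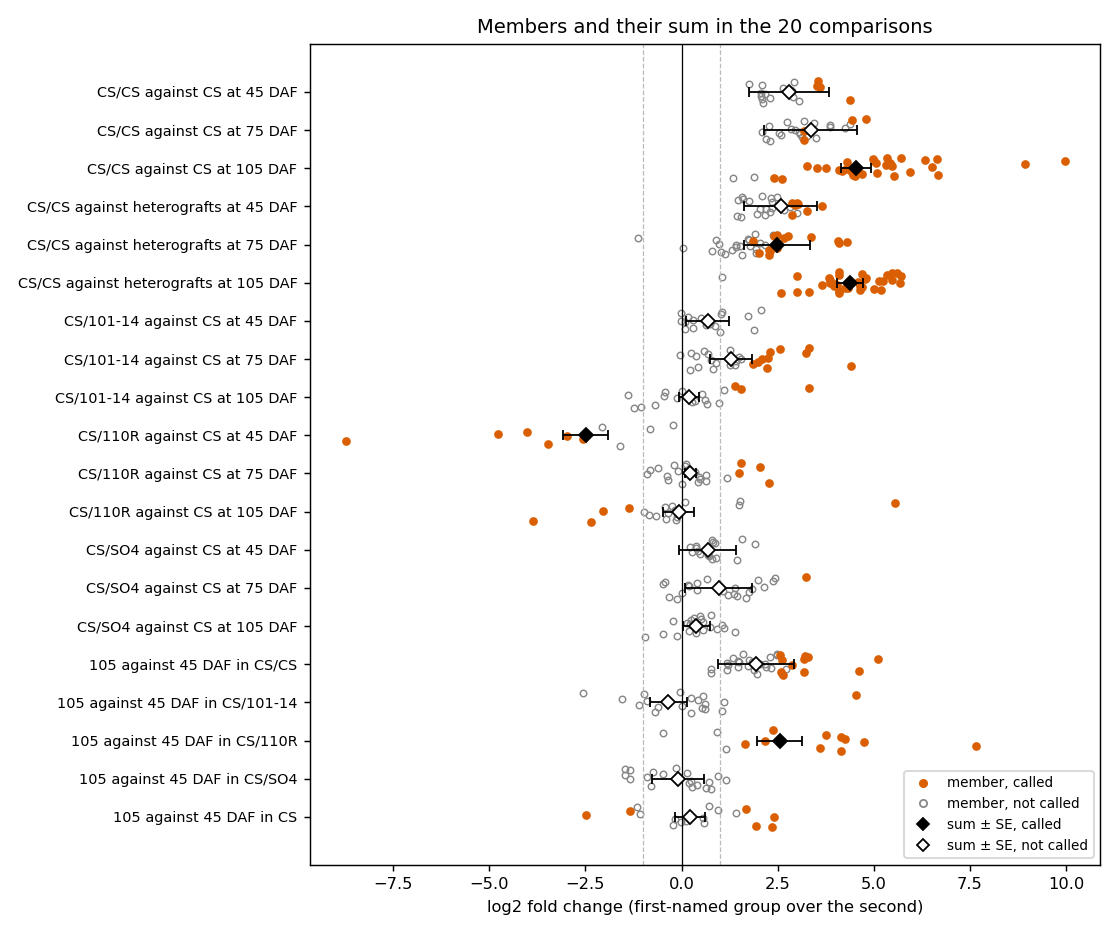
Log2 fold change of each member (open grey points not called, orange points called) and of the summed members (diamond, with its SE) in the comparisons of the report, with dashed lines at 1 and -1. The summed members lie at 4.54 for CS/CS against CS and at 4.38 for CS/CS against the heterografts at DAF105, and at -2.50 for CS/110R against CS at DAF45.

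VIT_16s0100g00990 showed the pattern at the highest level. It reached 179, 61.1 and 103 TPM in CS/CS at DAF105, against 3.85, 1.66 and 1.65 TPM in CS (log2 fold change 5.47, SE 0.53). The heterografts held between 1.25 and 5.53 TPM (median 2.80), so that every CS/CS library was above the rest. VIT_16s0100g01200, at the far end of the chromosome 16 array, had 64.0, 33.6 and 75.7 TPM in CS/CS and 1.12, 1.85 and 0.989 TPM in CS (log2 fold change 5.35, SE 0.39). VIT_16s0100g01010, the member closest to VIT_16s0100g00990 in its pattern, had 67.0, 29.3 and 50.7 TPM in CS/CS and 1.32, 0.970 and 0.837 TPM in CS (log2 fold change 5.45, SE 0.37). For all 3 members, the lowest CS/CS library was above the highest library of the other types, and replicate 2 was the lowest of the CS/CS libraries.

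VIT_16s0100g00950, the copy named CHS whose primers are printed above, moved with the array. It had 46.7, 25.2 and 48.4 TPM in CS/CS at DAF105 and 0.307, 0.599 and 0.303 TPM in CS (log2 fold change 6.51, SE 0.41). The CS/CS values rest on 772 counts in all and those of CS on 8, and the ratio of summed CPM was 96.9 with an exact 95% interval of 48.9 to 225 that covers counting error only. Against the heterografts, which held between 0 and 2.46 TPM (median 0.827), its log2 fold change was 5.23 (SE 0.52, adjusted p = 8.22e-06 by edgeR's quasi-likelihood test). Its transcript model is 0.25 of the length of the median member, and 76.7% of its counts above 0 were not whole.

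Other abundant copies followed. VIT_16s0100g01000 had 69.7, 23.3 and 45.3 TPM in CS/CS at DAF105 and 5.06, 4.26 and 4.17 TPM in CS (log2 fold change 3.26, SE 0.38). VIT_16s0100g00830 had 49.7, 19.8 and 32.3 TPM in CS/CS and 1.92, 1.40 and 1.03 TPM in CS (log2 fold change 4.45, SE 0.40). VIT_16s0100g00900 had 24.7, 10.7 and 18.1 TPM in CS/CS and 1.48, 0.578 and 0.857 TPM in CS (log2 fold change 4.09, SE 0.43). The libraries of the 2 types did not overlap for any of these 3 members, as for 34 of the 35 members tested and for 52.1% of all transcripts tested. Of the 35, 22 reached 10 counts in some library of both types, and the rest entered the test through their CS/CS counts alone. The number set apart among the 22 was not worked out, so the count of 34 is a description.

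VIT_16s0100g01120 was at 0 counts in all 3 CS libraries at DAF105 and at 194, 78 and 109 counts in CS/CS, that is 6.82, 3.04 and 4.34 TPM. Taking 3 counts per library as the floor, it was at least 41.9-fold higher in CS/CS. VIT_16s0100g01040, named here after its values were seen, was likewise at 0 in CS and at 2.63, 1.497 and 2.67 TPM in CS/CS, or at least 20.4-fold higher. The members not called were both on chromosome 10. VIT_10s0042g00860 had 69.1, 25.8 and 38.4 TPM in CS/CS and 21.5, 16.2 and 10.9 TPM in CS (log2 fold change 1.34, adjusted p = 0.0616), and VIT_10s0042g00920, named after its values were seen, had 13.0, 2.22 and 4.70 TPM in CS/CS and 2.27, 1.69 and 1.02 TPM in CS (log2 fold change 1.89, adjusted p = 0.0513, both by edgeR's quasi-likelihood test).

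At DAF105, 32 of 35 members had all 3 CS/CS libraries above the other 12 libraries in TPM, where 16.8% of all transcripts did so. Among the 23 members that reached 10 counts in 3 or more of those 12 libraries, 21 did, where 15.6% of all such transcripts did. At DAF45, 0 of 27 members and at DAF75 0 of 35 members did, where the share of all transcripts was 13.2% and 19.1%.

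At the earlier stages, the replicates of CS/CS were far apart. At DAF75, VIT_16s0100g00990 had 265, 41.7 and 2.24 TPM in CS/CS, against 7.60, 7.25 and 6.09 TPM in CS, and VIT_16s0100g00950 had 109, 10.8 and 1.55 TPM in CS/CS, against 2.19, 1.91 and 2.14 TPM in CS. Replicate 1 thus held the highest level of these copies in the whole series, and replicate 3 lay below CS. At DAF45, it was replicate 2 of CS/CS that was high, with 104.8 TPM of VIT_16s0100g00990 beside 4.33 and 35.4 TPM in replicates 1 and 3, against 6.61, 8.74 and 2.71 TPM in CS.

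The summed members were 10.3-fold higher in CS/CS than in CS at DAF75 (log2 fold change 3.36, SE 1.21, adjusted p = 0.0624) and 6.89-fold higher at DAF45 (log2 fold change 2.79, SE 1.04, adjusted p = 0.0733), and neither passed edgeR's quasi-likelihood test. All 24 members tested at DAF75 had a positive log2 fold change and 4 were up-regulated, where 9.10% of all transcripts tested were up-regulated and 6.76% down-regulated. These were VIT_16s0100g01200, VIT_16s0100g01190, VIT_16s0100g00920 and VIT_10s0042g00870. All 19 members tested at DAF45 had a positive log2 fold change and 4 were up-regulated, where 12.1% of all transcripts tested were up-regulated and 6.15% down-regulated. These were VIT_16s0100g00750, VIT_16s0100g01030, VIT_16s0100g01070 and VIT_16s0100g01200. Of the 19, 17 reached 10 counts in some library of both types, and 2 of the 17 were called. The other calls came from members that entered the test through their CS/CS counts alone. Apart from VIT_16s0100g01200, the names were chosen after the values were seen. The counts rest on single libraries, since 17 members were called at DAF45 without replicate 1 of CS/CS and 0 when any other of the 6 libraries was left out, while at DAF75 24 were called once replicate 3 of CS/CS was dropped and 0 when any other was dropped.

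Against the heterografts, the sum in CS/CS was 5.57-fold higher at DAF75 (log2 fold change 2.48, SE 0.86, adjusted p = 0.0207) and 5.95-fold higher at DAF45 (log2 fold change 2.57, SE 0.96, adjusted p = 0.0523, both by edgeR's quasi-likelihood test). At DAF75, 14 of 35 members tested were up-regulated in CS/CS and 0 down-regulated, where 19.3% of all transcripts tested were up-regulated and 34.3% changed in either direction. VIT_16s0100g00990 had the largest change of them, with a log2 fold change of 4.30 (SE 0.83), followed by VIT_16s0100g00950 with 4.09 (SE 0.87) and VIT_16s0100g01010 with 4.08 (SE 0.84). Without replicate 1 of CS/CS, the log2 fold change of the sum was 0.62 and no longer called, and 1 member was called. At DAF45, 7 of 26 members were up-regulated and 0 down-regulated, where 9.62% of all transcripts were up-regulated and 5.90% down-regulated, and 0 were called without replicate 2 of CS/CS.

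Of the 9 comparisons of a heterograft with CS, that of CS/110R at DAF45 was the one in which the summed level passed the test. There the sum was lower in CS/110R, at 0.177 of the CS level (log2 fold change -2.50, SE 0.58, adjusted p = 0.0209 by edgeR's quasi-likelihood test), and the 3 CS/110R libraries were below the 3 CS libraries. Of 10 members tested, 0 were up-regulated and 6 down-regulated, where 3.94% of all transcripts tested were up-regulated and 7.11% down-regulated. Only 6 of the 10 reached 10 counts in some library of both types, and 2 of these 6 were called, so the other 4 calls came from members that entered the test through their CS counts alone. The 6 called were VIT_16s0100g00830, VIT_16s0100g00900, VIT_16s0100g00950, VIT_16s0100g00990, VIT_16s0100g01000 and VIT_16s0100g01010. The call on the sum was lost without replicate 1 of CS and without replicate 1 of CS/110R, at a log2 fold change of -2.50 in both cases, and 2 members were called when any one of the 3 CS libraries was left out.

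In CS/110R at DAF45, VIT_16s0100g00990 was down to 1.16, 0.956 and 0.521 TPM, against 6.61, 8.74 and 2.71 TPM in CS (log2 fold change -2.97, SE 0.51). VIT_16s0100g01010 had 0.434, 0.261 and 0 TPM in CS/110R and averaged 3.13 ± 1.80 TPM in CS (SD, n = 3). VIT_16s0100g00900 was at 0 counts in all 3 CS/110R libraries and at 1.11, 2.45 and 0.376 TPM in CS, at least 16.1-fold lower in CS/110R. None of these members overlapped between the types, as was the case for 8 of the 10 members tested and for 47.3% of all transcripts tested. Of the 10, 6 reached 10 counts in some library of both types, and the number set apart among the 6 was not worked out. VIT_16s0100g01000 and VIT_16s0100g00950 rested on 6 and 9 counts in all in CS/110R, and the ratios of summed CPM to CS were 0.0396 (exact 95% interval 0.0143 to 0.0882) and 0.186 (0.0801 to 0.382), where the intervals cover counting error only.

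At DAF75, a few copies were called higher than in CS in CS/101-14 and CS/110R, and 1 in CS/SO4, while the sums did not pass the test. In CS/101-14, 10 of 26 members tested were up-regulated and 0 down-regulated, where 11.2% of all transcripts tested were up-regulated and 16.6% down-regulated, and the sum had a log2 fold change of 1.29 (SE 0.55, adjusted p = 0.0691 by edgeR's quasi-likelihood test), which was called at 1.74 without replicate 2 of CS/101-14 (adjusted p = 0.00224). Of these 26, 25 reached 10 counts in some library of both types, and 9 of the 25 were called. The number of members called was 4 without replicate 2 or 3 of CS or replicate 3 of CS/101-14, 6 without replicate 1 of CS and 18 without replicate 2 of CS/101-14. In CS/110R, 4 of 22 members were up-regulated and 0 down-regulated (9.52% and 14.6% of all transcripts), and the log2 fold change of the sum was 0.22 (adjusted p = 0.223). In CS/SO4, VIT_16s0100g01200 alone of 23 members was up-regulated and 0 were down-regulated, smaller shares than among all transcripts (8.43% and 14.5%). There the log2 fold change of the sum was 0.97 (adjusted p = 0.374 by the same test), which was -1.15 without replicate 3 of CS/SO4.

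VIT_16s0100g01200 was the copy up-regulated in every grafted type at DAF75. It had 73.6, 11.1 and 0.708 TPM in CS/CS, 6.499, 2.001 and 18.5 TPM in CS/101-14, 2.90, 1.35 and 3.23 TPM in CS/110R and 2.64, 0.785 and 23.1 TPM in CS/SO4, against 0.647, 0.733 and 1.63 TPM in CS. The log2 fold changes were 4.80 (SE 1.47) for CS/CS, 3.31 (SE 0.80) for CS/101-14, 1.55 (SE 0.48) for CS/110R and 3.24 (SE 1.16) for CS/SO4, with the 3 CS libraries shared by all 4 comparisons. The libraries of CS/101-14 lay above those of CS, and those of the other types overlapped with CS. Between CS/101-14 and CS, 5 of the 26 members tested did not overlap, where 70.6% of all transcripts did not overlap in one direction or the other. When each of the 6 libraries was left out in turn, the call held 6 times in CS/101-14, 2 times in CS/110R and CS/SO4, and 1 time in CS/CS, without its replicate 3. The other members up-regulated in CS/110R at this stage, VIT_10s0042g00870, VIT_16s0100g00930 and VIT_16s0100g01030, are named after their values were seen, and each of them was also among the 10 called in CS/101-14.

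At DAF105, no sum of a heterograft differed from CS by the test (log2 fold change 0.18 in CS/101-14, adjusted p = 0.719, -0.08 in CS/110R, adjusted p = 0.914, and 0.39 in CS/SO4, adjusted p = 0.515, by edgeR's quasi-likelihood test). In CS/101-14, 3 of 19 members were up-regulated and 0 down-regulated, where 1.15% of all transcripts tested were up-regulated and 0.954% down-regulated. They were VIT_16s0100g01200, VIT_16s0100g01070 and VIT_16s0100g01100, the last pair named after their values were seen. Of these 19, 17 reached 10 counts in some library of both types, and 2 of the 17 were called. The number called was 0 or 1 without each of the 6 libraries in turn. In CS/SO4, 0 of 20 members were called (1.62% of all transcripts up-regulated and 2.88% down-regulated) by edgeR, with 2 at an unadjusted p under 0.05, and 1 was called by DESeq2. At DAF45, 0 of 17 members were called in CS/101-14 (0.103% of all transcripts up-regulated and 0.0402% down-regulated), with 2 at an unadjusted p under 0.05, and 0 of 17 in CS/SO4 (3.08% and 2.16%), with 0 at an unadjusted p under 0.05, and DESeq2 called 0 in both.

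In CS/110R at DAF105, members differed from CS in both directions. Of 18 members tested, 1 was up-regulated and 4 were down-regulated, where 1.98% of all transcripts tested were up-regulated and 4.86% down-regulated. Of these 18, 15 reached 10 counts in some library of both types, and 2 of the 15 were called. The one up-regulated was VIT_16s0100g01100, and those down-regulated were VIT_10s0042g00870, VIT_10s0042g00920, VIT_16s0100g00940 and VIT_16s0100g01000, of which all but the last are named after their values were seen. VIT_10s0042g00870 had 0.627, 0.403 and 0.514 TPM in CS/110R and 3.75, 1.84 and 1.78 TPM in CS (log2 fold change -2.37, SE 0.40, adjusted p = 0.00757 by edgeR's quasi-likelihood test). VIT_10s0042g00920 had 0.138, 0.133 and 0.087 TPM in CS/110R, on 8 counts in all, and 2.27, 1.69 and 1.02 TPM in CS, a ratio of summed CPM of 0.0705 (exact 95% interval 0.0297 to 0.144, counting error only). VIT_16s0100g01000 was lower by less, with 2.65, 1.17 and 1.85 TPM in CS/110R and 5.06, 4.26 and 4.17 TPM in CS (log2 fold change -1.36, SE 0.28). In these 3 members the types did not overlap, as in 6 of the 18 members tested and in 42.4% of all transcripts tested.

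The chromosome 10 array as a whole was lower in CS/110R at DAF105, with 1.44, 0.966 and 0.877 CPM in CS/110R and 10.4, 7.10 and 4.93 CPM in CS (log2 fold change -2.86, SE 0.35, adjusted p = 0.00207 by edgeR's quasi-likelihood test). The call held without each of the 6 libraries in turn. The chromosome 16 array had 39.3, 14.4 and 52.7 CPM in CS/110R and 35.9, 27.4 and 23.0 CPM in CS, and its log2 fold change was 0.21 (adjusted p = 0.761). The difference between the arrays was not itself tested. At DAF75, the chromosome 10 array was higher in CS/110R, with 9.31, 8.77 and 8.34 CPM against a mean of 4.80 ± 0.371 CPM in CS (SD, n = 3), and its log2 fold change of 0.97 (SE 0.14, adjusted p = 0.000576) stayed just below the threshold of 1. At DAF45, it held 1, 1 and 3 counts in CS/110R and 33, 56.0 and 15 counts in CS, a ratio of summed CPM of 0.0476 (exact 95% interval 0.0151 to 0.115, counting error only).

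**Figure D4:**
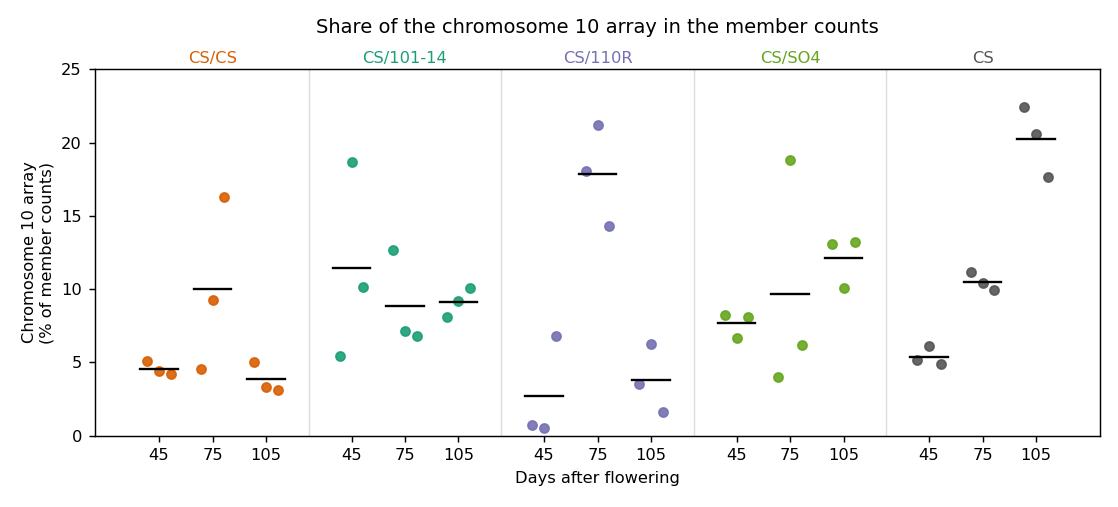
Share of all member counts that fell on the chromosome 10 array (percent, linear axis) in each library, by graft type and stage. At DAF105 the 12 libraries of the grafted types lie between 1.64% and 13.2% and the 3 CS libraries between 17.7% and 22.4%.

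Seen as a share, the chromosome 10 array took on average 3.84% (CS/CS), 9.11% (CS/101-14), 3.83% (CS/110R) and 12.1% (CS/SO4) of the member counts at DAF105, against 20.2% in CS (range 17.7% to 22.4%). All 12 grafted libraries of that stage lay below the 3 CS libraries. In CS/CS, the small share came with a higher level, since the chromosome 10 array itself was 4.57-fold higher in CS/CS than in CS (log2 fold change 2.19, SE 0.51, adjusted p = 0.0146), beside 28.03-fold for the chromosome 16 array (log2 fold change 4.81, SE 0.38, adjusted p = 0.000422, both by edgeR's quasi-likelihood test). The call on chromosome 10 was lost without replicate 2 or replicate 3 of CS, at log2 fold changes of 2.14 and 1.95. Against the heterografts, the arrays were 10.1-fold (chromosome 10) and 21.8-fold (chromosome 16) higher in CS/CS. At DAF45, the mean share was 4.57% in CS/CS, 11.4% in CS/101-14, 2.69% in CS/110R, 7.69% in CS/SO4 and 5.39% in CS. There the CS/SO4 libraries (6.70% to 8.27%) lay above those of CS (4.92% to 6.10%) and CS/CS (4.19% to 5.09%). The CS/101-14 libraries (from 5.43%) also lay above CS/CS, and the other pairs of types overlapped. At DAF75, the share in CS/110R (14.3% to 21.2%) lay above that in CS (9.92% to 11.2%), and the other grafted types overlapped with CS. None of these shares was tested.

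Between DAF45 and DAF105, the summed members did not change by the test in CS (log2 fold change 0.22, adjusted p = 0.629), CS/101-14 (-0.34, adjusted p = 0.577) or CS/SO4 (-0.10, adjusted p = 0.898). In CS/110R, the sum rose, and was 5.85-fold higher at DAF105 than at DAF45 (log2 fold change 2.55, SE 0.59, adjusted p = 0.00538, all by edgeR's quasi-likelihood test). In that type, 10 of 13 members were up-regulated and 0 down-regulated, where 16.9% of all transcripts tested were up-regulated and 23.8% down-regulated. Of these 13, 7 reached 10 counts in some library of both stages, and 4 of the 7 were called. The number called was 3, 4 and 1 without replicate 1, 2 and 3 of CS/110R at DAF105. VIT_16s0100g00900, at 0 counts in all DAF45 libraries, reached 0.713, 0.322 and 0.749 TPM at DAF105, at least 8.13-fold higher. In CS/CS, the log2 fold change of the sum was 1.94 (SE 0.99, adjusted p = 0.138), all 35 members tested had a positive one, and 11 were up-regulated and 0 down-regulated, where 13.6% of all transcripts were up-regulated and 18.6% down-regulated. Of these 35, 34 reached 10 counts in some library of both stages, and 10 of the 34 were called. Without replicate 2 of CS/CS at DAF45, the sum was called at a log2 fold change of 3.47, and 33 members were called.

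Within CS, 4 of the 17 members tested were up-regulated and 2 down-regulated between DAF45 and DAF105, a share of members close to that of all transcripts tested, of which 37.1% changed in either direction. Of these 17, 14 reached 10 counts in some library of both stages, and 3 of the 14 were called. The number called was 3 without replicate 1 of CS at DAF45 and without replicate 2 or 3 of CS at DAF105. VIT_16s0100g00950 fell, with 0.307, 0.599 and 0.303 TPM at DAF105 and 2.20, 4.03 and 1.80 TPM at DAF45 (log2 fold change -2.48, SE 0.56, adjusted p = 0.00565). VIT_16s0100g01010 had a log2 fold change of -1.33 (SE 0.50, adjusted p = 0.046 by edgeR's quasi-likelihood test), but this call held in only 1 of 6 fits with a library left out (range -1.74 to -0.82) and was lost in one fit of all 45 libraries (adjusted p = 0.272) and under limma. The members up-regulated were VIT_10s0042g00870, VIT_10s0042g00920, VIT_16s0100g00940 and VIT_16s0100g01070, named after their values were seen. The chromosome 10 array was 4.29-fold higher at DAF105 (log2 fold change 2.10, SE 0.47, adjusted p = 0.00587), and the chromosome 16 array had a log2 fold change of -0.03 (adjusted p = 0.944). In CS/SO4, 0 of 19 members were called by edgeR and by DESeq2 (by edgeR, 15.1% of all transcripts were up-regulated and 21.9% down-regulated), with 0 at an unadjusted p under 0.05 by either. In CS/101-14, VIT_16s0100g01100 alone of 19 was up-regulated and 0 were down-regulated (12.9% and 19.5% of all transcripts). That member held at most 2 counts in a CS/101-14 library at DAF45, so it entered the test through its DAF105 counts alone.

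The make-up of the sum shifted with stage and graft type. VIT_16s0100g00990, VIT_16s0100g01010 and VIT_16s0100g00950 together took 45.1%, 37.6% and 30.9% of the member counts in CS/CS at DAF45, DAF75 and DAF105, and 41.2%, 31.1% and 15.4% in CS. In the heterografts, the means of the types lay between 28.05% and 37.3% at DAF45, between 12.3% and 16.1% at DAF75 and between 15.9% and 17.9% at DAF105. At DAF105, the 3 CS/CS libraries held between 29.1% and 32.9% and no other library more than 21.6%. These shares were not tested.

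VIT_16s0100g01100 followed its own course and had the lowest r with the sum of the other members (0.33). Its values led to its being described here. At DAF105, it had 2.84, 2.87 and 6.77 TPM in CS/CS, 1.14, 0.636 and 1.09 TPM in CS/101-14, 4.84, 0.760 and 8.03 TPM in CS/110R and 0.259, 0.834 and 0.286 TPM in CS/SO4, against 0.196, 0.0642 and 0 TPM in CS. All 12 grafted libraries were above the 3 CS libraries, and the share of all transcripts set apart in this way was not worked out. Between 2 types at this stage, 52.1% (CS/CS and CS) and 42.4% (CS/110R and CS) of all transcripts tested did not overlap, in either direction. The CS values rest on 6, 2 and 0 counts, and the ratio of summed CPM to CS was 44.8 (CS/CS), 10.9 (CS/101-14), 51.2 (CS/110R) and 5.39 (CS/SO4), with exact 95% intervals of 22.5 to 104.6, 5.29 to 26.1, 25.7 to 119 and 2.48 to 13.4 for counting error only. By edgeR's quasi-likelihood test it was up-regulated in CS/CS (adjusted p = 0.00225), CS/110R (adjusted p = 0.0134) and CS/101-14 (adjusted p = 0.042), the last 2 of which were lost without replicate 2 of CS. The call in CS/101-14 was also lost without replicate 3 of CS (adjusted p = 0.101), with the replicate number as a block (adjusted p = 0.0591), in one fit of all 45 libraries (adjusted p = 0.0951) and under limma. When a library of the grafted type was left out, VIT_16s0100g01100 had too few counts to be tested in each of these comparisons. In CS/SO4 it had too few counts to be tested. It was also higher at DAF105 than at DAF45 in CS/CS (log2 fold change 5.10, SE 0.81), CS/101-14 (4.54, SE 0.68) and CS/110R (3.75, SE 1.14), and the call in CS/110R was lost in 3 of 6 fits with a library left out.

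The primer list of the study also gives identifiers for 8 genes outside the arrays whose names stand for phenylpropanoid, flavonoid or methylation steps. They were grouped here as pathway genes. They were read from the same fits. These genes carry the names of that list, which also calls VIT_16s0100g00950 CHS, and the identity behind each name could not be checked here. At DAF105, 2 of them were up-regulated and 1 down-regulated in CS/CS against CS. Not called were 4CLL2 (log2 fold change 0.45), 4CLL5 (-0.36), CHI (-0.17), F3H (0.53) and OMTF3 (-0.44). 4CL1 (VIT_11s0052g01090), which activates coumarate to its CoA ester, had 71.7, 34.0 and 71.5 TPM in CS/CS and 4.24, 4.80 and 3.86 TPM in CS (log2 fold change 3.69, SE 0.31, adjusted p = 0.000457). PAL1 (VIT_16s0039g01320), at the entry of the phenylpropanoid pathway, had 17.7, 5.46 and 11.6 TPM in CS/CS and 3.14, 1.16 and 1.84 TPM in CS (log2 fold change 2.37, SE 0.55, adjusted p = 0.0142). The gene named LDOX (VIT_18s0001g03430), after an enzyme that makes anthocyanidins, went the other way, with 4.61, 14.9 and 15.8 TPM in CS/CS and 70.3, 108 and 106 TPM in CS (log2 fold change -3.09, SE 0.44, adjusted p = 0.00257, all by edgeR's quasi-likelihood test). Since its identity was not checked, this is not read as a fall of anthocyanidin synthesis. The libraries of the 2 types did not overlap in any of the 3 genes, as in 52.1% of all transcripts tested.

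**Figure D5:**
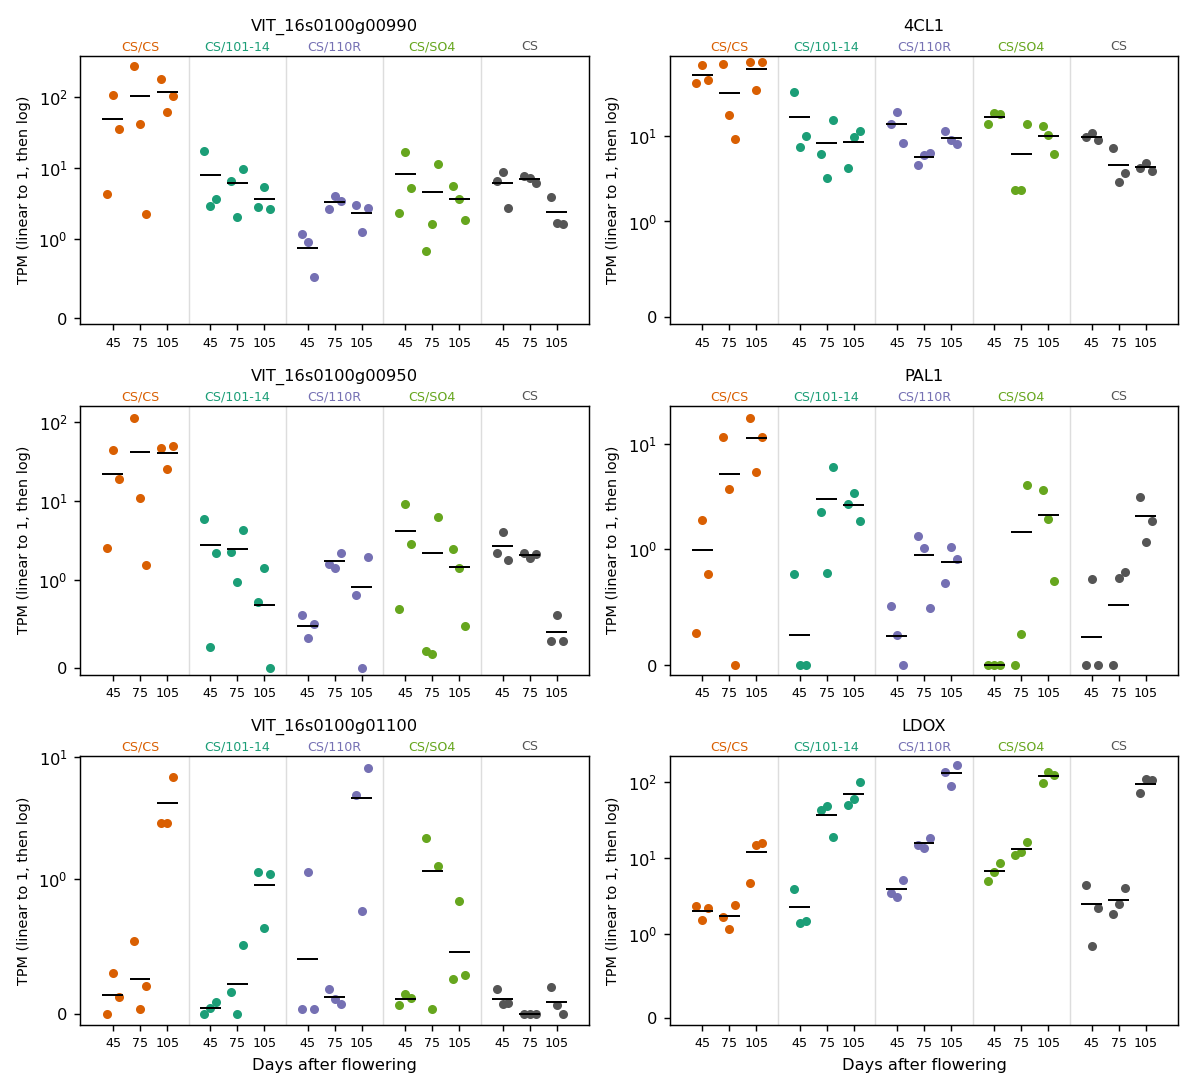
TPM in every library (linear to 1, then log) of VIT_16s0100g00990, VIT_16s0100g00950 and VIT_16s0100g01100 on the left and of the pathway genes 4CL1, PAL1 and LDOX on the right, by graft type and stage. In CS/CS at DAF105, 4CL1 lies at 34.0 to 71.7 TPM and LDOX at 4.61 to 15.8 TPM, against 3.86 to 4.80 and 70.3 to 108 TPM in CS.

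In CS/CS at DAF75, where the replicates of the array differed most, 4CL1 had 67.5, 17.6 and 9.07 TPM and PAL1 had 11.7, 3.75 and 0 TPM, in the same order as the summed members at 1165, 229.8 and 18.2 CPM. The gene that the primer list names CHI (VIT_05s0094g00350) had 26.7, 7.33 and 18.3 TPM in CS/CS at that stage and between 9833 and 20081 TPM in the heterografts (log2 fold change -9.84, SE 0.55, adjusted p = 9.03e-09 by edgeR's quasi-likelihood test). That name stands for an enzyme of the flavonoid branch, but whether this gene encodes it was not checked, so its values are not read as those of that branch. Against CS at DAF75, 4CL1 was up-regulated in CS/CS (log2 fold change 2.78) and CHI and 4CLL5 (VIT_16s0050g00390) down-regulated (-6.04 and -1.32), while in each heterograft CHI, F3H, LDOX and 4CLL5 were up-regulated and 4CLL2 down-regulated. The part of these genes, or of the stage of ripening they move with, in the member levels was not tested.

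Outside the arrays, the transcripts most like the summed members were VIT_09s0002g04720 (r = 0.885), VIT_14s0068g01190 (r = 0.881) and VIT_11s0065g00350 (r = 0.876), over the 15 group means of log2(CPM + 1) and among 13514 transcripts with at least 10 TPM in some group. These groups share scion, stage and libraries, and the coefficients are a description. The same measure was 0.796 for PAL1, 0.596 for 4CL1, 0.257 for F3H, 0.104 for 4CLL2, 0.101 for 4CLL5, -0.022 for CHI and -0.108 for LDOX. The transcript VIT_11s0065g00350 had a mean of 54.8 TPM in CS/CS at DAF105 and 3.25 TPM in CS.

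Whether the effect of a graft differed between DAF75 and DAF105 was asked by an interaction term. For the summed members, none of the 4 interactions passed edgeR's quasi-likelihood test, with log2 differences of 1.14 for CS/CS (adjusted p = 0.546), -1.09 for CS/101-14 (adjusted p = 0.217), -0.27 for CS/110R (adjusted p = 0.686) and -0.56 for CS/SO4 (adjusted p = 0.701). The called effect of self-grafting at DAF105 was thus not shown to differ from that at DAF75. Of single members, 6 of 24 were called in CS/110R (20.6% of all transcripts), all negative, with VIT_10s0042g00870 at -4.63 (SE 0.51, adjusted p = 3.3e-05) and VIT_10s0042g00920 at -4.27 (SE 0.49, adjusted p = 4.1e-05), both named after their values were seen. In CS/101-14, 4 of 28 were called (24.5% of all transcripts), and in CS/CS and CS/SO4 0 of 37 and 0 of 26 (14.1% and 20.4%), with 2 and 0 at an unadjusted p under 0.05. The 4 in CS/101-14, named after their values were seen, were VIT_10s0042g00870, VIT_16s0100g00750, VIT_16s0100g00930 and VIT_16s0100g00940, and all were negative.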

How the data were processed

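The table holds 45 berry skin libraries, 3 for each of 15 groups of graft type and stage, assigned by sample title, characteristics and the note under the study's table of reads, with 0 columns unassigned. Reads were trimmed by the authors (fastp), mapped with HISAT2 onto the V. vinifera 12X assembly, put together into transcripts (StringTie) and counted (HTSeq) (versions are not given in the sources used here). The expected counts were deposited without normalization and hold fractions, and the tool behind the fractions is not given in the sources used here. The TPM values were scaled by the authors for length and library size. Single copies are given as uncertain beside their sum, since reads of near-identical copies can be shared out between them, which was not tested.

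Counts were rounded. edgeR 4.0.16 (quasi-likelihood test, TMM, R 4.3.3) was run over the transcripts that reached 10 counts in 3 or more libraries of the comparison, and calls needed a log2 fold change beyond 1 or -1 with p, adjusted after Benjamini-Hochberg, of at most 0.05. For the sum, the 49 members were replaced by 1 row, or by 1 row per array. Comparisons were each grafted type against CS (12), DAF105 against DAF45 (5), CS/CS against the 9 heterografted libraries (3) and interactions (4). SE is the log2 fold change over the root of F. A group at 0 was set to 3 counts per library for lower bounds, and exact intervals are at 95%. CPM and TPM were logged after adding 1. In simulated data for CS/CS against CS at DAF105, with means of at least 50 counts, edgeR recovered 187 of 200 transcripts changed by a log2 fold change of 2, with 9 false calls among 17858, and DESeq2 188 with 19 false calls. Many members held fewer counts than that, and their replicates lay far apart in some groups. The recovery and the false calls are therefore not read as rates for the members.

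Alternatives were DESeq2 1.42.0, limma 3.58.1 on log2(TPM + 1), RLE size factors, no filter beyond 1 count, the replicate number as a block, one joint fit of the 45 libraries, leaving out each library, and the sum without VIT_16s0100g00990, the last chosen after seeing the data. Figures were drawn with matplotlib 3.10.9 in Python 3.11.15. Named members were VIT_16s0100g00950, the 6 and 2 most abundant of the arrays, the largest called changes of each family of comparisons and members at or near 0, beside the pathway genes and the 3 transcripts most like the sum. Others are said to be named after their values were seen. Members and lists were chosen with earlier results of these data known. Fold changes and p-values of the authors were not used.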

Additional observations from a re-analysis of the deposited data

Results flagged for a closer look

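Among the 9 heterografted libraries of a stage, single libraries stood far from the others in 3 members. For normal values from a single population, chance gives such a distance in about 1 of 20 groups tested. Here the 9 libraries came from 3 heterografts and the values were TPM, so that rate is only a guide. VIT_10s0042g00880 had 3.57 TPM in replicate 1 of CS/101-14 at DAF45, and the next library 1.18 TPM (gap over range 0.669, with a critical value of 0.493). VIT_16s0100g01120 had 1.196 TPM in replicate 2 of CS/SO4 at DAF45, and the next library 0.324 TPM (0.729). VIT_10s0042g00860 had 26.2 TPM in replicate 1 of CS/SO4 at DAF105, and the next library 10.9 TPM (0.583). Both chromosome 10 members are very short models, so these TPM rest on few counts. VIT_10s0042g00880 never held more than 47.1 counts in a library, where its TPM reached at most 47.1. VIT_10s0042g00860 never held more than 68 counts, where its TPM reached at most 145.8. The effect of CS/110R against CS on VIT_16s0100g01000 differed between DAF105 and DAF75, by -1.52 on the log2 scale (SE 0.404, adjusted p = 0.00938, edgeR's quasi-likelihood test of the interaction). This member had 2.65, 1.17 and 1.85 TPM in CS/110R and 5.06, 4.26 and 4.17 TPM in CS at DAF105, and 5.19, 3.65 and 4.88 TPM in CS/110R and 3.36, 5.21 and 5.73 TPM in CS at DAF75.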

How the results depend on the processing

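The calls on the summed members at DAF105 held under every alternative run, with log2 fold changes from 4.23 to 4.83 (CS/CS against CS) and from 4.05 to 4.67 (against the heterografts) as libraries were left out. The other sums and counts depended more on the setting, and the cause was not tested. Under limma on log2(TPM + 1), members called were 2, 1 and 0 at DAF75 in CS/101-14, CS/110R and CS/SO4, 1 and 3 at DAF105 in CS/101-14 and CS/110R, 0 and 0 in CS/CS at DAF45 and DAF75, 0, 4, 17 and 3 between DAF45 and DAF105 in CS/101-14, CS/110R, CS/CS and CS, and 3 and 5 for CS/CS against heterografts at DAF45 and DAF75. The sum turned to -0.46 and -0.10 at DAF105 in CS/101-14 and CS/SO4, to -0.14 and -0.48 at DAF75 in CS/110R and CS/SO4, to 0.28 between DAF45 and DAF105 in CS/SO4 and to 0.38 for its interaction, and against the heterografts at DAF75 it was 1.71 (adjusted p = 0.139). Under DESeq2, members called were 4 and 1 in CS/SO4 at DAF75 and DAF105, 11 and 17 in CS/CS at DAF45 and DAF75, 3 and 17 between DAF45 and DAF105 in CS/101-14 and CS/CS, and 4 for CS/CS against heterografts at DAF45. Sums were then called in CS/CS against CS at DAF45 (2.79) and DAF75 (3.37) and against heterografts at DAF45 (2.61). In one fit of all 45 libraries, members called were 0 in CS/101-14 at DAF105, 2 and 2 in CS/110R at DAF75 and DAF105, 6 in CS/SO4 at DAF75, 19 and 30 in CS/CS at DAF45 and DAF75, 18 and 2 between DAF45 and DAF105 in CS/CS and CS, and 29 and 26 against heterografts at DAF45 and DAF75. The sum of CS/110R at DAF45 was then not called (-2.46, adjusted p = 0.0789), and those of CS/CS at DAF45 and DAF75 (2.76 and 3.38) and against heterografts at DAF45 (3.12) were. With no filter beyond 1 count, members called were 13 and 7 in CS/110R at DAF45 and DAF75, 4 and 9 in CS/SO4 and CS/CS at DAF75, and 16, 3 and 13 between DAF45 and DAF105 in CS/110R, CS/SO4 and CS. Without VIT_16s0100g00990, the sum was called in CS/101-14 at DAF75 (1.52) and turned to 0.060 between DAF45 and DAF105 in CS/SO4. RLE size factors changed none of these.

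Replicate numbers did not pair the libraries, since 0 of 26 pairs of groups had every correlation of deviations above 0.1 (range -0.297 to 0.532). With the replicate number as a block, members called were 0 in CS/101-14 at DAF105, 0 in CS/CS at DAF75, 5 between DAF45 and DAF105 in CS/CS and 0 for CS/CS against heterografts at DAF45, and the sum of CS/SO4 was -0.024 at DAF75 and 0.18 between DAF45 and DAF105.

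With each library left out in turn, the log2 fold change of the sum against CS at DAF45, DAF75 and DAF105 ranged from -0.044 to 1.098, 0.50 to 1.74 and -0.094 to 0.42 in CS/101-14, from -3.01 to -2.07, 0.11 to 0.38 and -0.47 to 0.29 in CS/110R, from -0.44 to 1.17, -1.15 to 1.46 and 0.14 to 0.73 in CS/SO4, and from 1.27 to 3.34 and 1.47 to 3.94 in CS/CS at DAF45 and DAF75. Between DAF45 and DAF105 it ranged from -0.65 to 0.38 in CS/101-14, 2.07 to 2.998 in CS/110R, -0.61 to 0.99 in CS/SO4, 1.37 to 3.47 in CS/CS and -0.14 to 0.57 in CS. Against heterografts it ranged from 1.06 to 3.12 at DAF45 and 0.62 to 3.07 at DAF75, and for the interactions from -1.53 to -0.29 (CS/101-14), -0.67 to 0.10 (CS/110R), -1.03 to 1.57 (CS/SO4) and 0.61 to 3.05 (CS/CS). Other values that turned sign were 0.17 for CS/110R at DAF105 and 0.25 for CS/SO4 between DAF45 and DAF105. Members called at DAF45, DAF75 and DAF105 ranged from 0 to 0, 4 to 18 and 0 to 1 in CS/101-14, 2 to 7, 1 to 5 and 2 to 5 in CS/110R, 0 to 1, 0 to 10 and 0 to 1 in CS/SO4, and 0 to 17, 0 to 24 and 20 to 33 in CS/CS. Between DAF45 and DAF105 they ranged from 0 to 3 (CS/101-14), 1 to 9 (CS/110R), 0 to 6 (CS/SO4), 3 to 33 (CS/CS) and 3 to 6 (CS), and against heterografts from 0 to 12, 1 to 26 and 26 to 35.

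Of 1629 alternatives for 125 called results on single members or arrays, 1385 kept the call, 244 lost it and 0 turned direction. This tally leaves out fits in which the member or array no longer had enough counts to be tested, so the kept share is not a rate over all fits. For example, VIT_16s0100g00950 in CS/CS against CS at DAF105 was tested in just 3 of the 6 fits with a library left out. With 16387269 to 20765329 counts per library, a member under 10 counts in too many libraries was not tested, and a member absent from a test is not shown to be unchanged.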
